A study of Mus musculus with 8 samples.

Results

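The genes described here activate and inactivate glucocorticoid hormone, bind it, or respond to its receptor. They are 10 of the 20352 genes measured in mouse cerebellum: Hsd11b1, Hsd11b2, H6pd, Nr3c1, Nr3c2, Fkbp5, Sgk1, Tsc22d3, Zbtb16 and Pdk4. A gene's value was the mean log2 intensity of the probe sets annotated with its symbol alone, which for these 10 genes were 101 of 241576 probe sets. The set was put together around the difference of Hsd11b1 between the genotypes, so the genotype differences of its members are a description, and nothing is read from a count of members called in that contrast, and Hsd11b1 was in the set because it was high in the mutants. RNA came from whole cerebellum of 4 Cic-L-null mice and 4 wild-type mice, all 28 days old and all on a mixed Swiss Webster (CD-1) background, with 1 array per animal. The mutants carry an allele that the labels name Cic-L-null, of Capicua (Cic), a DNA-binding transcriptional repressor, and the labels name no other allele and no treatment in either genotype. None of the 10 genes lies on the chromosome of Cic. The labels limit the model further in that they give no time of day for tissue collection, and the RNA extraction is described in more detail for wild-type 1 than for the other 7 arrays.

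Glucocorticoids (corticosterone in mice) act in the brain through the glucocorticoid and the mineralocorticoid receptor, which are held ready by chaperones and move to the nucleus when hormone binds. Before that step, an enzyme in the endoplasmic reticulum regenerates active corticosterone from its inactive form inside the cell, while a second enzyme inactivates it. Receptor target genes include a co-chaperone that lowers the receptor's own affinity for hormone, so that the system carries its own brake. In cerebellum the glucocorticoid receptor is abundant in granule cells.

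The stretches of 250 bases before the gene start are shown for the gene with the largest difference between the genotypes and for a pair of response genes, because they hold, or lack, letters that Capicua or the receptor can recognise. The sequences are from RefSeq (GRCm38.p6), 5′ to 3′ on the gene's strand, with a Capicua octamer or a full receptor palindrome in capitals and single receptor half-sites left in lower case. The RefSeq table gave 14 windows for 7 of the 10 genes. The Hsd11b1 window lies at chr1:193242361-193242610 on the minus strand, the Sgk1 window at chr10:21993640-21993889 on the plus strand, and the Fkbp5 window at chr17:28486150-28486399 on the minus strand.
Hsd11b1: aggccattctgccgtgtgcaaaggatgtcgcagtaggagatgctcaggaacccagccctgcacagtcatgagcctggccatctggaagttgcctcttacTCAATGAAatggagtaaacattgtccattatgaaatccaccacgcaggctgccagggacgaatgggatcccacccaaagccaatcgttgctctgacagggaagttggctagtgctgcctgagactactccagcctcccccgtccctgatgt
Sgk1: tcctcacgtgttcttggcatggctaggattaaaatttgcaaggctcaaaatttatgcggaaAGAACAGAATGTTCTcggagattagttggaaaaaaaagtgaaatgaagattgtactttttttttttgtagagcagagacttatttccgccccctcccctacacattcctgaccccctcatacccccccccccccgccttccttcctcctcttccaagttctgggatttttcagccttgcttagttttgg
Fkbp5: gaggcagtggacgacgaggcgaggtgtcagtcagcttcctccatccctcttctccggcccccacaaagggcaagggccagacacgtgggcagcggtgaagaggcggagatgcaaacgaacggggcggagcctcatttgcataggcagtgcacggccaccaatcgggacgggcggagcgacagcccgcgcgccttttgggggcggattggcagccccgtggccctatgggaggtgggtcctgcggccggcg

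Capicua is known to bind octamers of the form TGAATGAA, TGAATGGA, TCAATGAA or TCAATGGA, and the glucocorticoid receptor the half-site TGTTCT or a palindrome of a pair of half-sites facing each other with 3 bases between. These 6 forms were searched on both strands, and they were chosen with the sequences in view. TCAATGAA was found in the Hsd11b1 window, where it starts 151 bases before the gene start, and in 0.642% of the 32851 windows of all genes. The other Capicua strings, in 1.08% (TGAATGAA), 1.01% (TGAATGGA) and 0.521% (TCAATGGA) of all windows, were in none of the 14 windows of these genes. The full palindrome was in 3 of all windows (0.00913%), and 1 of those was a window of Sgk1, with the match starting 189 bases before the gene start. That was 1 of 6 windows listed for Sgk1, and the match overlaps with the half-site TGTTCT by construction. TGTTCT alone was in 16.1% of all windows and in 5 of the 14, from H6pd, Sgk1 and Tsc22d3. The Fkbp5 window held none of the 6 forms. A match of letters is a description and was not tested for binding.

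The tissue and the genotype labels were checked first. Cic was lower in every mutant, at 7.5, 7.48, 7.62 and 7.54 log2 units in the Cic-L-null arrays against 8.74, 8.57, 8.63 and 9.19 in the wild-type arrays (-1.25, SE 0.12, limma adjusted p = 0.00818). Mean log2 values of granule cell markers (11.79 to 11.88 in Cic-L-null and 11.74 to 11.84 in wild-type arrays) and of Purkinje cell markers (10.77 to 10.86 in Cic-L-null and 10.72 to 10.93 in wild-type arrays) were high. Forebrain markers were low, at 6.24 to 6.54 in Cic-L-null and 6.44 to 6.66 in wild-type arrays. Array medians lay between 7.82 and 7.88, and all pairs of arrays correlated between 0.9913 and 0.9954 over genes. Cic-L-null 3 stood apart in a pair of ways, and whether either bears on the genes below was not tested. It was the only mutant without signal of Y-linked genes, which wild-type 2 and wild-type 3 also lacked. Xist was at 10.55 in Cic-L-null 3 and at 10.55 and 10.6 in wild-type 2 and 3, against 5.17 to 5.46 in the others. By these genes Cic-L-null 3, wild-type 2 and wild-type 3 were female and the others male, so sex was not balanced between the genotypes. The 9 measured choroid plexus markers of Cic-L-null 3 averaged 7.18, against 7.80 to 8.30 in the other mutants and 7.76 to 8.19 in the wild-type arrays.

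Hsd11b1 codes for the reductase that restores active corticosterone within cells, and all 4 Cic-L-null arrays lay above all 4 wild-type arrays. Its log2 values were 8.71, 8.55, 8.61 and 8.48 in Cic-L-null arrays 1 to 4, against 7.93, 7.96, 7.85 and 7.85 in wild-type arrays 1 to 4. The groups did not overlap, and the distance between the means was larger than the range within either. The means were 8.59 ± 0.096 in Cic-L-null and 7.90 ± 0.056 in wild-type mice (SD, n = 4 each), a difference of 0.69 (SE 0.065), or 1.62-fold. Leaving out any one array gave differences from 0.65 to 0.73. It was the only one of the 10 genes called in the fit over all genes (limma, adjusted p under 0.05), where 0.138% of the 20352 genes were called, 0.0884% higher and 0.0491% lower. It was likewise the only one whose groups did not overlap, where 5.94% of all genes did not, 3.02% with the mutants higher. As the set was built from this contrast, neither count says anything about the set. The call was lost with the median of probe sets, an unmoderated test, the replicate number as a block, and without Cic-L-null 2. In whole tissue, more cells with a transcript and more transcript per cell cannot be told apart.

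**Figure D1:**
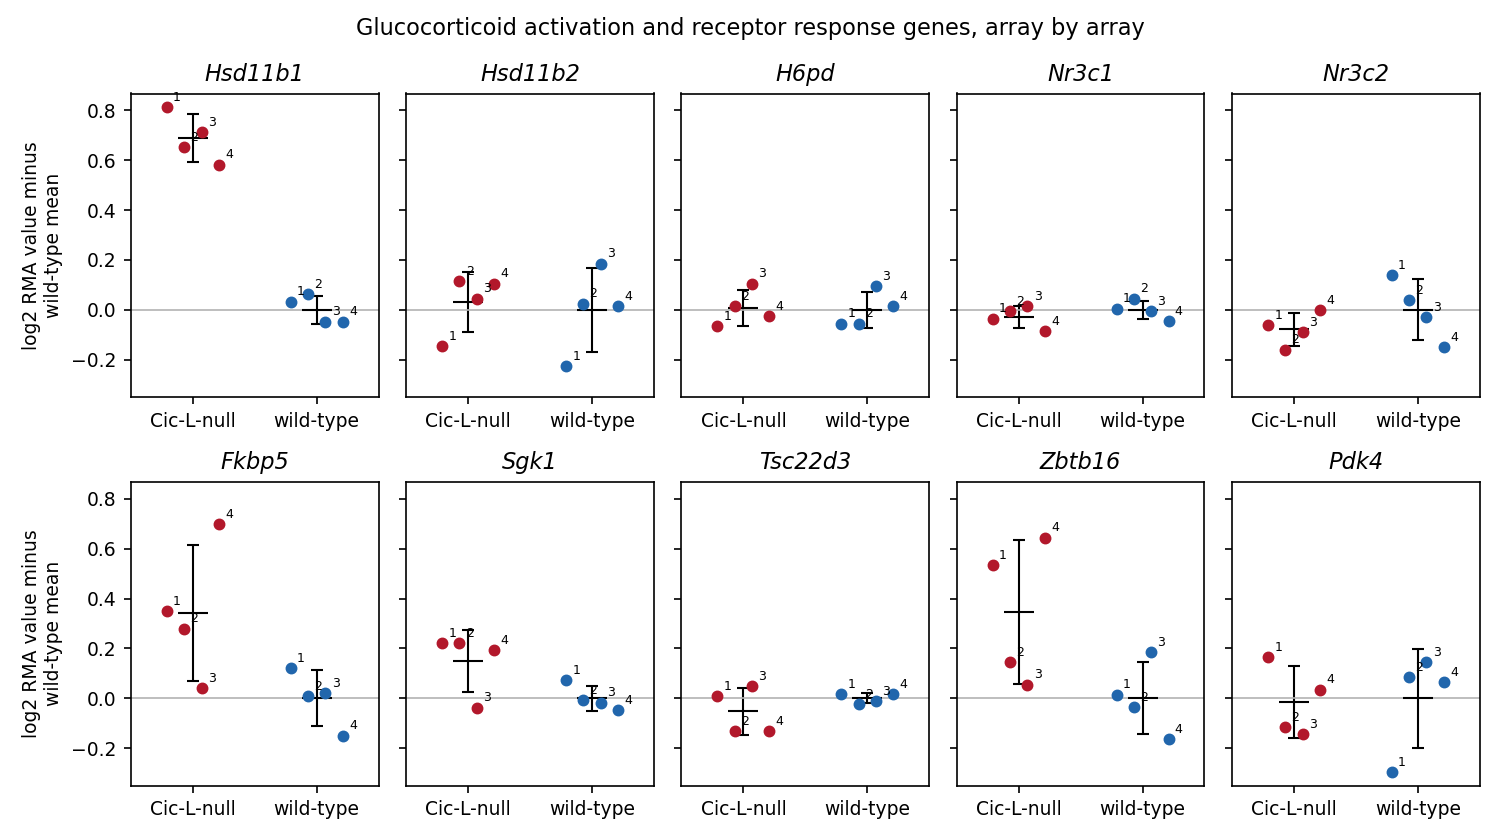
Log2 values of the 10 genes minus each gene's wild-type mean, each gene in its own panel, on a shared vertical axis. Points are arrays, Cic-L-null on the left and wild-type on the right, and bars are group means with SD. Hsd11b1 is the only gene whose Cic-L-null points all lie above its wild-type points. Before subtraction its log2 values were 8.48 to 8.71 and 7.85 to 7.96.

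The 11 probe sets of Hsd11b1 did not report the same size of difference. Of these, 8 had a mean above 6.21 log2 units, the limit under which 95% of 967 olfactory receptor genes lie, which cerebellum should hardly express. In all 8 the mutants lay above the wild-type arrays without overlap, with differences of 0.57 to 1.01 and a median of 0.88, while 2.39% of all 241576 probe sets had groups that did not overlap in that direction. The brightest, probe set 10361241, read 12.04, 11.91, 11.79 and 11.90 in Cic-L-null arrays against 11.11, 10.82, 11.04 and 10.84 in wild-type arrays (0.96, SE 0.10). The largest difference, 1.01 (SE 0.12), was that of probe set 10361239, at 9.89, 10.02, 9.82 and 9.88 in Cic-L-null and 8.88, 8.66, 8.87 and 9.17 in wild-type arrays. The smallest difference among the bright probe sets, 0.57 (SE 0.15), was that of probe set 10361243 and lay under the difference of the gene value, whereas the other bright ones lay above it. In the fit over single probe sets, 1 of 241576 (0.000414%) was called, and it was not one of Hsd11b1.

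The other 3 probe sets of Hsd11b1 lay under that limit, and in each of them the groups overlapped. Probe set 10361235 read 3.0 to 3.49 in Cic-L-null and 2.84 to 3.64 in wild-type arrays (0.096, SE 0.18). Probe set 10361245 read 3.96 to 5.80 in Cic-L-null and 4.55 to 5.74 in wild-type arrays (-0.23, SE 0.41). Probe set 10361242 differed by 0.85, with an SE of 0.37, and read 5.11 to 6.59 in Cic-L-null against 4.49 to 5.51 in wild-type arrays. These dim probe sets enter the gene value with the same weight as the bright ones. With the mean over the 8 bright probe sets alone, Hsd11b1 was at 10.12, 10.21, 9.96 and 10.02 in Cic-L-null against 9.29, 9.20, 9.24 and 9.12 in wild-type arrays, a difference of 0.87.

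**Figure D2:**
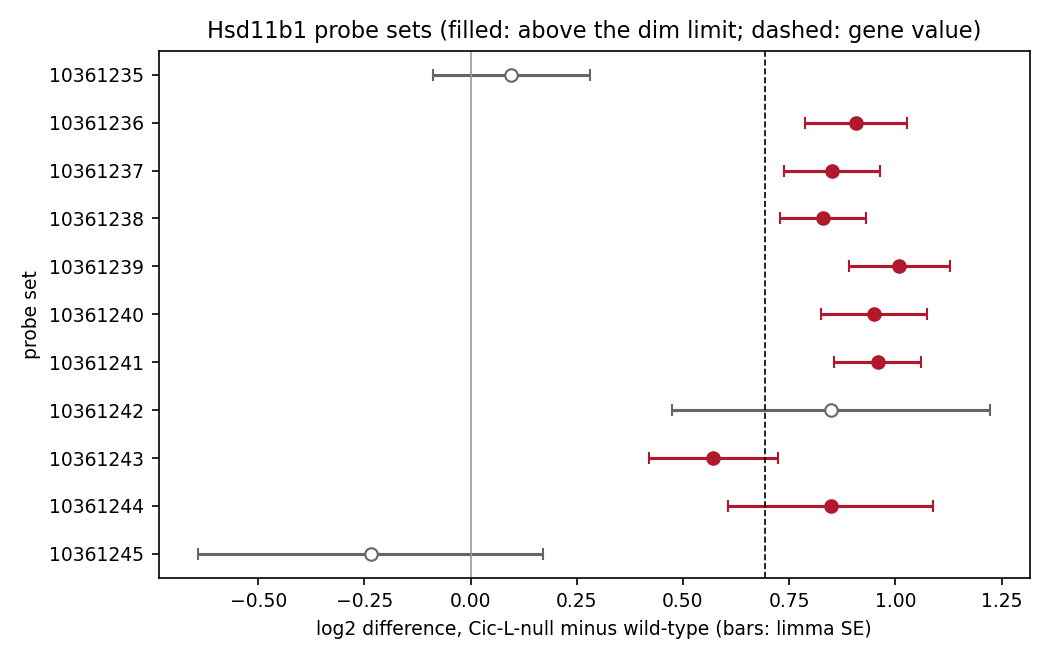
Log2 difference (Cic-L-null minus wild-type, horizontal axis) of each of the 11 Hsd11b1 probe sets, with limma standard errors as bars. Filled points are the 8 probe sets above the dim limit, which lie between 0.57 and 1.01, and open points are the 3 dim ones. The dashed line is the gene value's difference of 0.69.

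The other pre-receptor enzymes were at wild-type level within their spread. Hsd11b2 encodes the enzyme that inactivates corticosterone, and its log2 values ran from 6.25 to 6.51 in Cic-L-null and from 6.17 to 6.58 in wild-type arrays (0.029, SE 0.093). Only 3 of its 8 probe sets lay above the dim limit, so its transcript was close to the level of genes that cerebellum hardly expresses. H6pd encodes the dehydrogenase that makes NADPH in the endoplasmic reticulum, the cofactor that sets Hsd11b1's enzyme to produce active hormone. It ran from 7.83 to 8.0 in Cic-L-null and from 7.84 to 7.99 in wild-type arrays (0.0070, SE 0.062), and 3 of its 7 probe sets were higher and 4 lower in the mutants. Neither gene thus differed by more than its standard error.

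Neither receptor gene stood apart between the genotypes. Nr3c1, the glucocorticoid receptor, was at 9.57 to 9.67 in Cic-L-null and 9.61 to 9.70 in wild-type arrays (-0.026, SE 0.054). Nr3c2, the mineralocorticoid receptor, was at 7.62 to 7.78 in Cic-L-null and 7.63 to 7.92 in wild-type arrays (-0.075, SE 0.072). All 8 probe sets of Nr3c2 had lower means in the mutants, by -0.18 to -0.011, but the gene's groups overlapped. Of the 11 probe sets of Nr3c1, 3 were higher and 8 lower.

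Among the 5 receptor response genes, Fkbp5, Zbtb16 and Sgk1 had higher means in the mutants and Tsc22d3 and Pdk4 did not. Fkbp5 encodes the co-chaperone that lowers the receptor's affinity for hormone. It was at 7.61, 7.54, 7.30 and 7.96 in Cic-L-null arrays 1 to 4 against 7.38, 7.27, 7.28 and 7.11 in wild-type arrays 1 to 4. Cic-L-null 4 was the highest and Cic-L-null 3 lay within the wild-type range, so by this mean the groups overlapped through that one mutant. The means were 7.60 ± 0.27 in Cic-L-null and 7.26 ± 0.11 in wild-type mice (SD, n = 4 each), a difference of 0.34 (SE 0.12), or 1.27-fold. The difference was 0.44 without Cic-L-null 3 and 0.22 without Cic-L-null 4. With the median of probe sets the groups did not overlap, at 7.44 to 8.01 in Cic-L-null against 7.0 to 7.33 in wild-type arrays (0.45). With the bright probe sets they overlapped, with Cic-L-null 3 at 7.42 and the highest wild-type array at 7.48. Of its 14 probe sets, 12 were higher and 2 lower, and the largest difference, 1.03 (SE 0.25), was that of probe set 10449461, which read 8.0, 7.72, 7.43 and 8.47 in Cic-L-null against 7.21, 6.92, 6.40 and 6.99 in wild-type arrays.

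Zbtb16, a zinc-finger transcription factor that glucocorticoids induce in many cell types, had the same order among the mutants as Fkbp5. Its log2 values were 7.78, 7.39, 7.30 and 7.89 in Cic-L-null arrays 1 to 4 against 7.26, 7.21, 7.43 and 7.08 in wild-type arrays 1 to 4. Cic-L-null 1 and 4 were high, and Cic-L-null 2 and 3 lay at or under the highest wild-type array. The means were 7.59 ± 0.29 in Cic-L-null and 7.25 ± 0.14 in wild-type mice (SD, n = 4 each), a difference of 0.34 (SE 0.13). All 7 of its probe sets were higher in the mutants, by 0.13 to 0.78. Without Cic-L-null 4 the gene's difference was 0.24, and without Cic-L-null 3 it was 0.44.

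Sgk1 is a kinase that raises sodium transport and is induced through both receptors. By the mean of its probe sets it showed the contrast between Cic-L-null 3 and the other mutants most plainly. Its log2 values were 9.38, 9.38, 9.12 and 9.35 in Cic-L-null arrays 1 to 4 against 9.23, 9.15, 9.14 and 9.11 in wild-type arrays 1 to 4. The other 3 mutants lay above every wild-type array, and Cic-L-null 3 lay next to the lowest wild-type array. The means were 9.31 ± 0.12 in Cic-L-null and 9.16 ± 0.054 in wild-type mice (SD, n = 4 each), a difference of 0.15 (SE 0.071) that was 0.21 without Cic-L-null 3. Of its 17 probe sets, 15 were higher and 2 lower. With their median, Sgk1 was at 9.44, 9.56, 9.44 and 9.52 in Cic-L-null against 9.46, 9.39, 9.21 and 9.24 in wild-type arrays. Cic-L-null 3 was then level with Cic-L-null 1, and the groups overlapped with or without it.

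Tsc22d3 encodes GILZ, a leucine-zipper protein that carries part of the anti-inflammatory action of glucocorticoids, and it was not higher in the mutants. It was at 7.81 to 7.99 in Cic-L-null and at 7.92 to 7.96 in wild-type arrays (-0.054, SE 0.061). Pdk4, a kinase that shuts off pyruvate dehydrogenase during fasting, was at 6.37 to 6.68 in Cic-L-null and at 6.22 to 6.66 in wild-type arrays (-0.015, SE 0.11), and 6 of its 11 probe sets lay above the dim limit. Over the 5 response genes the median difference was 0.15, over all 10 genes 0.018 and over all genes measured -0.0071.

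Without Cic-L-null 3, a choice made after seeing the data, the groups of Hsd11b1, Fkbp5 and Sgk1 did not overlap by the mean of probe sets. That was 3 of the 10 genes in place of 1. Among all genes the share without overlap was then 9.96%, since fewer arrays overlap less often. Among the response genes, Fkbp5 and Sgk1 were lower in Cic-L-null 3 than in the other mutants by more than 0.2 log2 units, Zbtb16 and Pdk4 were lowest there but close to Cic-L-null 2, and Tsc22d3 was highest there. By the median of probe sets, Sgk1 in Cic-L-null 3 was level with Cic-L-null 1 (9.44 in each), and Tsc22d3 was lowest there (7.5). What part the low choroid plexus markers or the female sex of that array have in these values was not tested. Markers of mature oligodendrocytes (10.38 to 10.47 in Cic-L-null against 10.53 to 10.61 in wild-type arrays, 7 of 8 listed measured) and of Bergmann glia and astrocytes (all 8 measured, 7 with a difference below 0 and a median of -0.19) averaged lower in every mutant. In the list of Bergmann glia and astrocytes the largest drop was that of Fabp7 (-1.17), while Slc1a3 was at -0.031 and Slc1a2 was higher in every mutant (0.12). The lists of meningeal, endothelial, blood cell and microglial markers overlapped between the groups, for meningeal cells at 7.84 to 8.02 in Cic-L-null and 7.79 to 8.01 in wild-type arrays. Of the 7 endothelial markers 6 lay below 0, among them Itm2a (-0.39) and Cldn5 (-0.27), and 1 above. What part the lower glial and endothelial marker values have in the value of Hsd11b1 was not tested.

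Whether the response genes follow Hsd11b1 was asked within the genotypes, on deviations of each array from its own group's mean, because the Hsd11b1 values of the genotypes form separate groups and a pooled correlation would only restate that gap. Over the 8 arrays, no response gene followed Hsd11b1 to a degree that passed a test. Hsd11b1 varied little within genotype (SD 0.079 log2 units, against 0.21 for Fkbp5), which limits what these tests could detect. Fkbp5 had r = -0.30 (exact permutation within genotype, 2-sided p = 0.649) and rho = -0.14 (p = 0.778), and r = 0.18 without the 2 arrays farthest from the median, Cic-L-null 1 and 4. Sgk1 had r = 0.067 (exact permutation p = 0.885) and rho = 0.31 (p = 0.479), with r = -0.057 over the 6 arrays left. Both thus changed sign with the arrays used. For Zbtb16 r was -0.084 (exact permutation p = 0.887) and rho was -0.071 (p = 0.91), with r = -0.045 over 6 arrays.

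Tsc22d3 had the highest coefficient of the response genes, r = 0.64 (exact permutation p = 0.299) and rho = 0.45 (p = 0.431), with r = 0.29 over 6 arrays. Pdk4 had r = 0.050 (exact permutation p = 0.932) and rho = 0.17 (p = 0.74), with r = -0.35 over 6 arrays. The gene nearest to the test's threshold was Hsd11b2, the inactivating enzyme, with r = -0.68 (exact permutation p = 0.0729), rho = -0.50 (p = 0.25) and r = -0.55 over 6 arrays. With the level of Y-linked genes taken out its r was -0.87 (exact permutation p = 0.0625 after adjustment over the 9). With the median of probe sets it was 0.14. H6pd had r = -0.40 (exact permutation p = 0.394), rho = -0.60 (p = 0.188) and r = -0.49 over 6 arrays. Nr3c1 had r = 0.55 (exact permutation p = 0.236), rho = 0.52 (p = 0.26) and r = 0.67 over 6 arrays, and Nr3c2 had r = 0.28 (exact permutation p = 0.441), rho = 0.33 (p = 0.441) and r = 0.78 over 6 arrays. In all, 13 correlations were computed, 9 of them with Hsd11b1. In limma's fit of each gene on Hsd11b1 within genotype, the adjusted p over all genes was 1.0 for each of the 9, and 0% of 20351 genes were called, with 754 at an unadjusted p under 0.05.

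How an array ranks for Hsd11b1 within its genotype depended on which probe sets were averaged. From the mean of all 11 probe sets, Cic-L-null 1 lay highest among the mutants, at 0.12 above their mean, and Cic-L-null 4 lowest, at -0.11. From the 8 bright probe sets, Cic-L-null 2 lay highest, at 0.13, and Cic-L-null 3 lowest, at -0.12. The deviations by these rules correlated with r = 0.21, and those by the mean and by the median of the probe sets with r = -0.19. The order of arrays within a genotype thus changed with the rule, while the gap between the genotypes was seen under each rule. With the bright probe sets, Sgk1 had r = 0.79 with Hsd11b1 (exact permutation p = 0.0399), against 0.067 from all probe sets and 0.0030 from medians, so its value rests on the rule. With medians Nr3c1 had r = 0.88 (exact permutation p = 0.026), against 0.55 from all probe sets and 0.078 from bright ones. Neither passed after adjustment over the 9 correlations with Hsd11b1 under its rule. Fkbp5 had r = 0.19 (exact permutation p = 0.816) and Zbtb16 r = 0.14 (exact permutation p = 0.76) under the bright rule, both with the sign turned.

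**Figure D3:**
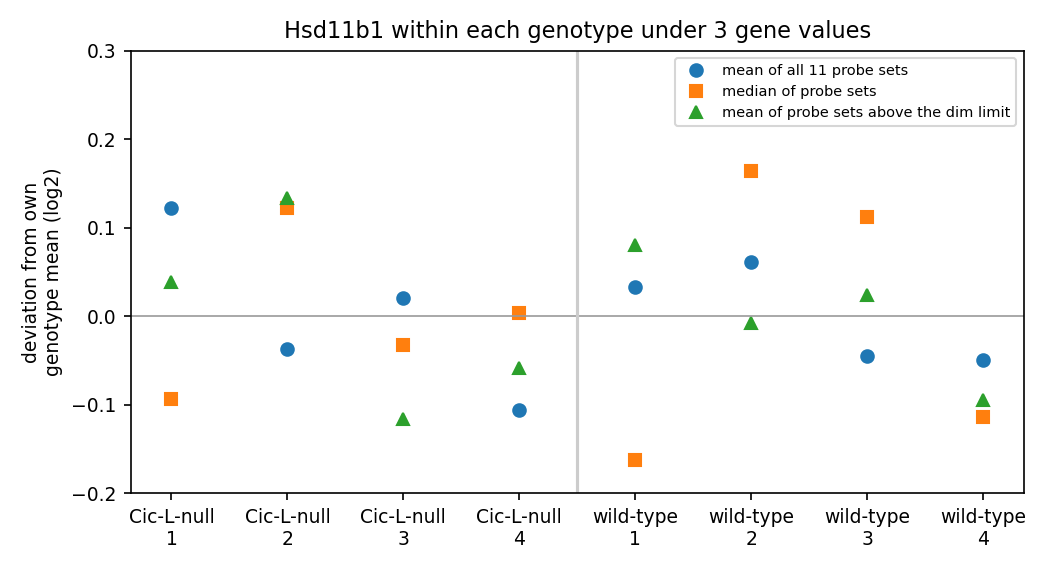
Deviation of Hsd11b1 from its own genotype's mean (vertical axis, log2) in each array (horizontal axis, Cic-L-null on the left, wild-type on the right) under 3 ways of combining probe sets. Marker shapes are the mean of all 11 probe sets, their median and the mean of those above the dim limit. The order of the arrays differs between the rules, with Cic-L-null 1 at 0.12 by the mean and at -0.094 by the median.

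The response genes were set against each other in the same way, with Fkbp5 as the anchor. Zbtb16 varied with Fkbp5 across the arrays of a genotype, with r = 0.84 (exact permutation, 2-sided p = 0.0122) and rho = 0.81 (p = 0.0104). Its slope was 0.92 log2 units of Zbtb16 per log2 unit of Fkbp5 (SE 0.24). After adjustment over the 4 correlations with Fkbp5 it passed the threshold by a small margin. It no longer passed with the median of probe sets (r = 0.69), with quantile normalisation (r = 0.83), or in 7 of the 8 fits that left out 1 array (r = 0.73 to 0.90 over the 8). The relation rests in part on the 2 arrays farthest from the median, Cic-L-null 3 and 4, since r was 0.57 over the other 6. In limma's fit over all genes its adjusted p was 0.983, and 0% of 20351 genes were called (922 at an unadjusted p under 0.05). Sgk1 had r = 0.69 (exact permutation p = 0.24), rho = 0.52 (p = 0.189) and r = 0.53 over 6 arrays. Tsc22d3 had r = -0.62 (exact permutation p = 0.365) and rho = -0.38 (p = 0.552), with r = 0.24 over 6 arrays, and Pdk4 had r = 0.092 (exact permutation p = 0.852) and rho = 0.048 (p = 0.944), with r = -0.41 over 6 arrays. With the level of Y-linked genes taken out, r with Fkbp5 was 0.85 for Zbtb16 and 0.61 for Sgk1.

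**Figure D4:**
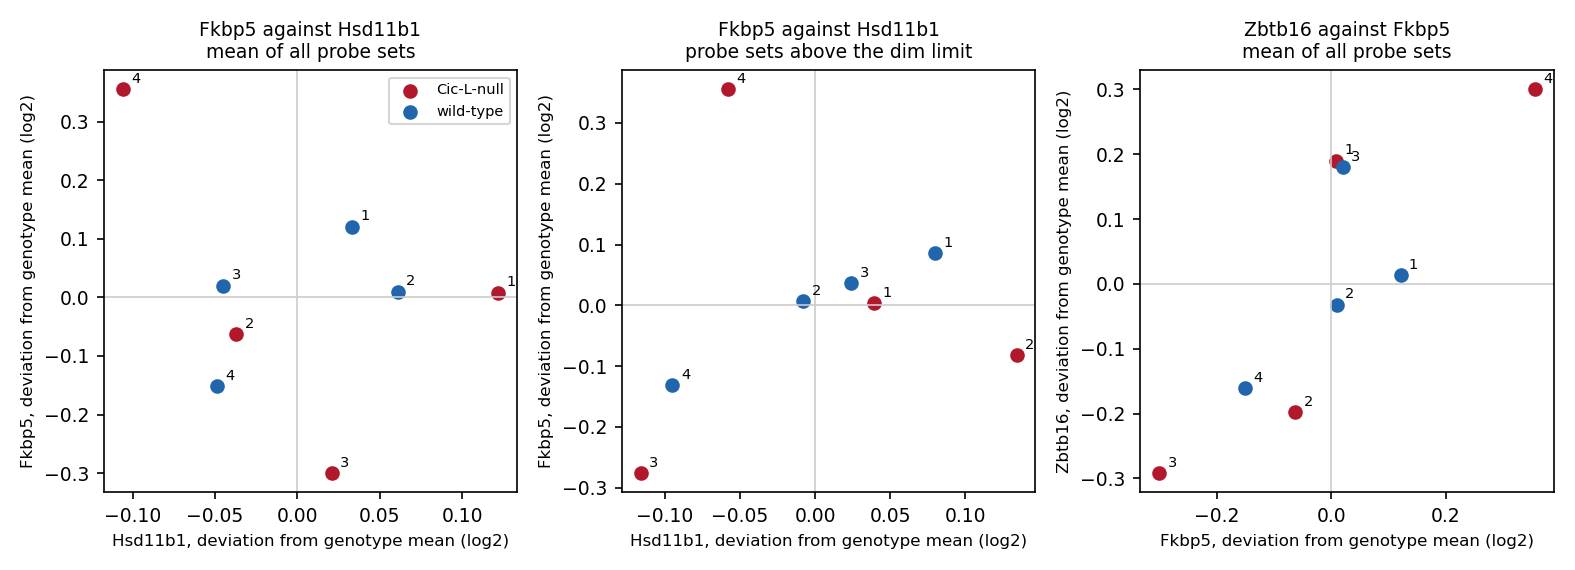
Deviations from the own genotype's mean (both axes, log2) of Fkbp5 against Hsd11b1 from all probe sets (left) and from bright ones (middle), and of Zbtb16 against Fkbp5 (right). Points are arrays, numbered by replicate, Cic-L-null in red and wild-type in blue. Fkbp5 has r = -0.30 with Hsd11b1 on the left and 0.19 in the middle, and Zbtb16 has r = 0.84 with Fkbp5.

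The genes whose within-genotype pattern was most like that of Hsd11b1, among 14002 genes above the dim limit over 8 arrays, were Cox7a1 (r = 0.98), Slc32a1 (0.97), Spock1 (0.97), Prps1l3 (0.96) and Sfrp4 (0.96). Fkbp5 was most like Parp4 (r = 0.99), Tfap4 (0.97), Tas2r108 (0.97), Fam227a (0.97) and Ndst2 (0.97). Ranked by r with Fkbp5, Zbtb16 came 119th and Sgk1 544th. These coefficients are the extremes of many, over few arrays that share their background, and are given as a description.

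Beyond the 10 genes, 90 of 95 listed genes of 8 pathway groups were measured, and none was called between the genotypes by limma. At an unadjusted p under 0.05 were 13 of them, a larger share than the 9.26% of all genes. The lists were, however, chosen with earlier results of these data known. No alternative fit called any of the listed genes either, with 7 to 18 at an unadjusted p under 0.05. Of the 90, 47 lay above 0 and 43 below, with a median of 0.013, and the groups did not overlap for 7 (7.78%), near the 5.94% of all genes. Without Cic-L-null 3 that number was 13, while the share of all genes was then 9.96% in place of 5.94%. The other 5 are not analysed here. Apart from genes marked as picked after their values were seen, the genes named below have the smallest p of each group. None of these smallest-p genes passed the adjusted threshold.

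A list of 30 further receptor target genes had 17 members above 0 and 13 below, with a median difference of 0.051. Of the 30, 5 were at an unadjusted p under 0.05, beside 9.26% of all genes. Txnip, an inhibitor of thioredoxin that glucocorticoids and glucose induce, was at 9.03, 9.51, 8.79 and 9.13 in Cic-L-null against 8.98, 8.44, 8.44 and 8.60 in wild-type arrays (0.50, SE 0.16, limma adjusted p = 0.322). Cdkn1c, a cell cycle inhibitor, was at 8.32, 8.27, 8.23 and 8.20 in Cic-L-null against 7.85, 8.07, 8.16 and 8.11 in wild-type arrays (0.21, SE 0.074, limma adjusted p = 0.382), with groups that did not overlap. The classical targets were thus spread on both sides of 0. Glul, the glutamine synthetase of astrocytes, and Per1, a clock gene with receptor sites, were chosen after their values were seen, and they differed by 0.26 (SE 0.10) and 0.26 (SE 0.16). Per1 was highest in Cic-L-null 3 and 4, at 9.17 and 9.13. By the mean of probe sets, Fkbp5, Zbtb16 and Sgk1 were low in Cic-L-null 3, but Fkbp5 and Zbtb16 were highest in Cic-L-null 4. Within genotype Per1 had r = -0.09 with Fkbp5. Per2 (0.75) and Dbp (0.64), clock genes also chosen after their values were seen, were higher in every mutant, with Cic-L-null 3 the highest at 8.34 and 9.86. Unlike the smallest-p genes, both were called (limma adjusted p = 0.0397 for Per2 and 0.0258 for Dbp).

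**Figure D5:**
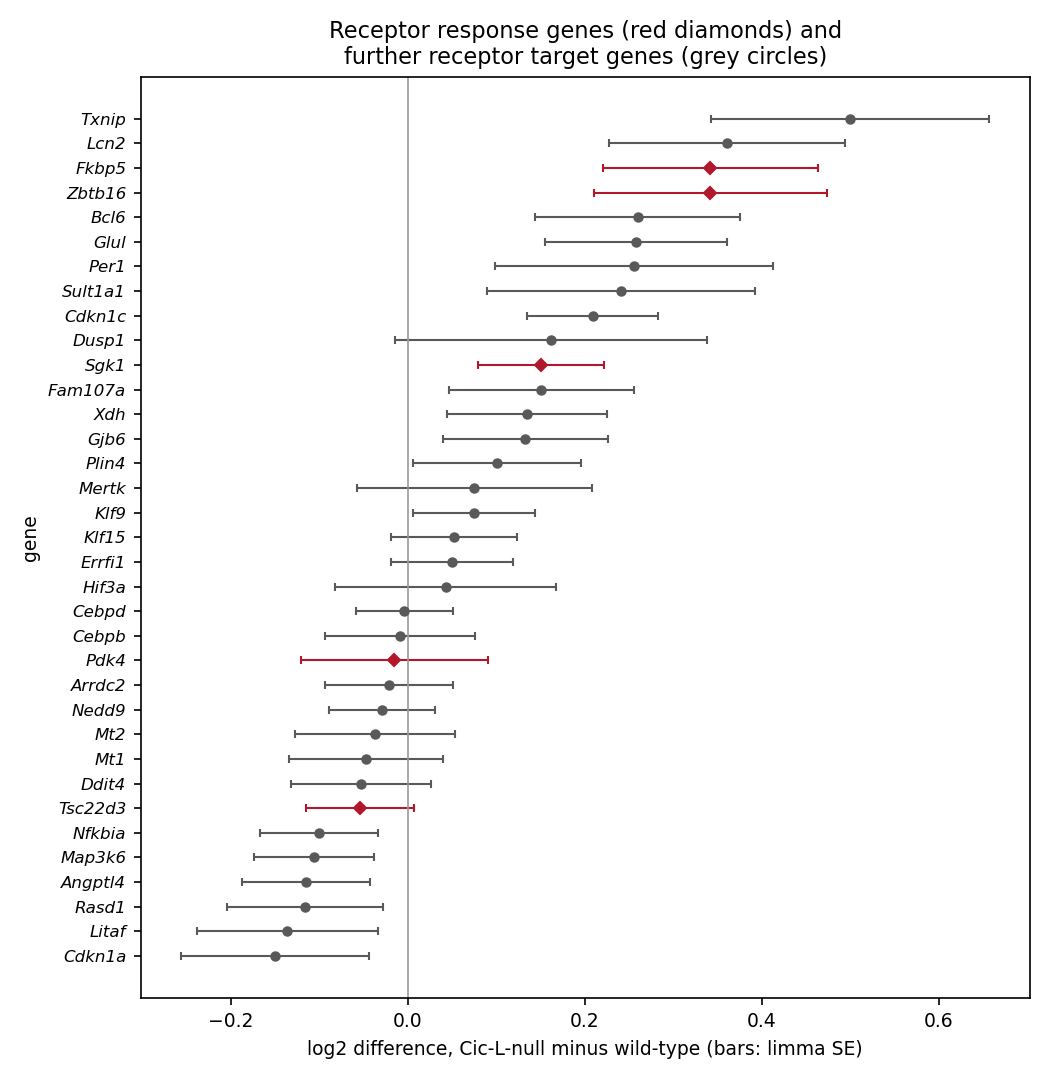
Log2 difference (Cic-L-null minus wild-type, horizontal axis) of the 5 receptor response genes (red diamonds) and 30 further receptor target genes (grey circles), with limma standard errors as bars, sorted by size. The differences spread on both sides of 0, with Txnip at 0.50 and Fkbp5 and Zbtb16 at 0.34.

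Set against Fkbp5 within genotype, 18 of the 30 target genes (60%) had r above 0, with a median of 0.26, while over all genes 46.1% did, with a median of -0.047. Mertk, a receptor kinase of phagocytosis, followed Fkbp5 with r = 0.91 and a slope of 1.00 (SE 0.21). Its log2 values were 8.21, 7.89, 7.79 and 8.50 in Cic-L-null against 8.08, 8.0, 8.01 and 8.0 in wild-type arrays, again lowest in Cic-L-null 3 and highest in Cic-L-null 4. Hif3a (r = 0.78), Sult1a1 (r = 0.69) and Bcl6 (r = 0.69) also had an unadjusted p under 0.05, as did Cebpb in the other direction (r = -0.74), and all 5 had a limma adjusted p of 0.983. These genes were picked from the list after their values were seen. Set against Hsd11b1, 5 of the 30 targets (16.7%) had r above 0, with a median of -0.21, against 52.4% of all genes. With the bright probe sets alone, 18 of the 30 (60%) did, with a median of 0.19. Over all 17611 genes under that rule 51.6% did, with a median of 0.016. The tendency below 0 thus rests on the rule for combining probe sets.

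Transcripts of proteins that work with the receptor differed by at most 0.26 among those named here. Of 14 chaperones and co-chaperones, 6 lay above 0 and 8 below, with Ppp5c, a phosphatase bound to the receptor complex, at 10.90 to 11.01 in Cic-L-null and 11.06 to 11.18 in wild-type arrays (-0.16, SE 0.057, limma adjusted p = 0.378). Hsp90aa1, the chaperone that holds the receptor in its hormone-binding form, was at -0.10 (SE 0.055). All 10 coregulators lay above 0, with a median of 0.075, where 47% of all genes lay above 0, and none of the 10 was called. Ppargc1a, a coactivator of mitochondrial genes, was at 9.01, 8.73, 8.77 and 9.03 in Cic-L-null against 8.61, 8.69, 8.57 and 8.62 in wild-type arrays (0.26, SE 0.079, limma adjusted p = 0.294), and Ncoa3 was at 0.14 (SE 0.060).

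Genes that make, metabolise or carry steroids had 4 members above 0 and 10 below, and 10 of the 14 were under the dim limit. Abcb1a, a transporter that limits brain entry of some corticosteroids, was at 8.65 to 8.71 in Cic-L-null and at 8.72 to 8.87 in wild-type arrays (-0.13, SE 0.056, limma adjusted p = 0.509). Cyp11a1, the first enzyme of steroid synthesis, was dim, at -0.23 (SE 0.090). For the supply of NADPH to the reductase, Slc37a4, the glucose-6-phosphate carrier of the endoplasmic reticulum, was at 0.14 (SE 0.087), and Pgd was at 0.041 (SE 0.056).

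In the corticotropin axis, 5 of 8 genes were dim. Crhr1, the receptor for corticotropin-releasing hormone, was at 9.54, 9.56, 9.55 and 9.55 in Cic-L-null against 9.35, 9.22, 9.44 and 9.38 in wild-type arrays (0.20, SE 0.060, limma adjusted p = 0.288), so its groups did not overlap and the mutants were close together. Crhbp, which binds that hormone, was dim, at -0.14 (SE 0.072). Among 7 effectors of the mineralocorticoid receptor and Sgk1, Ndrg1, a substrate of the Sgk1 kinase, was at 9.43, 9.79, 9.76 and 9.71 in Cic-L-null against 10.02, 9.96, 10.07 and 9.80 in wild-type arrays (-0.29, SE 0.091, limma adjusted p = 0.318). Nedd4l, a ubiquitin ligase that Sgk1 restrains, was at 0.13 (SE 0.070). The other steroid receptors measured were Esr2, dim and at -0.20 (SE 0.088), Pgr, at -0.062 (SE 0.073), and one further gene below 0.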

How the data were processed

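Total RNA of cerebellum was hybridised to Affymetrix Mouse Gene 1.0 ST arrays, 1 per mouse. The deposited log2 values were made by the authors with RMA, which corrects background, quantile-normalises and summarises probes. The submitters' processing notes name Affymetrix Power Tools for this step. Its version and the build were not given in the sources used here. Probe sets with 1 symbol in the platform annotation (212097 of 241576) entered genes, symbols were updated through RefSeq (GRCm38.p6), and a gene's value was the mean of its probe sets.

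Groups were compared with limma 3.58.1 in R 4.3.3 (lmFit, eBayes without trend, no dim filter, group only), with Benjamini-Hochberg adjustment over all genes and calls at an adjusted p under 0.05. Slopes on Hsd11b1 and Fkbp5 were fitted with genotype as a term. Correlations used deviations from group means with exact permutation within genotype (576 pairings). Code was tested on simulated data. There the slope fit on Fkbp5 recovered 0% of the changed genes at a slope of 0.5, 28% at 1.0 and 89% at 2.0. Slopes on Hsd11b1 were not simulated. The members and lists were chosen with earlier results of these data known. The genes named are the 10 members, Cic, the 2 smallest p of each pathway list, and the 5 genes most like Hsd11b1 and Fkbp5; others are marked. Same-numbered arrays of the 2 groups had deviations correlating at 0.219, 0.0, 0.207 and 0.026 for numbers 1 to 4. By this measure 4 arrays correlated best with the array of their own number. The numbers were not taken as pairs in the main fit, and whether they mark shared handling was not tested. A fit with the replicate number as a block is given below. Samples are separate mice, whose number limits the precision. Alternatives covered probe set rules, normalisation, dim filters, variance models, a Y-linked covariate, a replicate block and each array left out.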

Additional observations from a re-analysis of the deposited data

Results flagged for a closer look

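Within the groups of 4 arrays of 27 genes, 54 groups in all, 2 held an array far from the other 3, its gap to the nearest being past Dixon's 95% critical value. Chance alone gives such a flag in about 5% of groups. Sgk1 in Cic-L-null 3 was at 9.12, under the other mutants at 9.35 to 9.38. With the median of probe sets Sgk1 was at 9.44 both there and in Cic-L-null 1. Pdk4 in wild-type 1 was at 6.22, under the other wild-type arrays at 6.58 to 6.66. Wild-type 1 is the array whose label describes the RNA extraction differently, and whether that bears on Pdk4 was not tested.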

How the results depend on the processing

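The count of called genes over the transcriptome, 28, was 2 with the median of probe sets, 69 among genes above the dim limit, 130 with a trended and robust variance, 18 with the Y-linked covariate, 54 with array weights, 0 with an unmoderated test and 0 with the replicate block (smallest adjusted p 0.0564, 2125 at an unadjusted p under 0.05). In the unmoderated test 1860 were at an unadjusted p under 0.05. Leaving out 1 array gave 0 to 37 calls: 7, 0, 36 and 3 without Cic-L-null 1 to 4, and 37, 3, 3 and 5 without wild-type 1 to 4. Without Cic-L-null 2, 1723 were at an unadjusted p under 0.05. Hsd11b1 was called except with the median, the unmoderated test, the block and without Cic-L-null 2. Its difference was 0.62 with the median and 0.87 with bright probe sets, and that of Tsc22d3 was -0.17 with the median. Fits of slopes on Hsd11b1 or Fkbp5 called 0 genes under each alternative run. No blocked correlation was computed.

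Of 4 correlations with Fkbp5, 1 (Zbtb16) passed after adjustment over the 4, 0 with the median of probe sets (r = 0.69) and 0 with quantile normalisation, and 0 to 1 with an array left out, where it passed only without wild-type 3 (r = 0.73 to 0.90). Signs of r turned as follows. With Hsd11b1, the median gave 0.142 for Hsd11b2, 0.481 for H6pd, -0.425 for Nr3c2, -0.454 for Tsc22d3 and 0.331 for Zbtb16. The bright probe sets gave 0.186 for Fkbp5, 0.142 for Zbtb16 and -0.349 for Pdk4, equal array medians gave -0.076 and quantile normalisation -0.163 for Sgk1. With Fkbp5, the median gave -0.008 for Sgk1 and 0.679 for Tsc22d3, and the bright probe sets gave 0.463 for Tsc22d3 and -0.202 for Pdk4. With an array left out, r with Hsd11b1 ran from -0.28 to 0.438 for Sgk1, -0.524 to 0.356 for Pdk4, -0.457 to 0.464 for Fkbp5 and -0.592 to 0.511 for Zbtb16, and r with Fkbp5 from -0.206 to 0.543 for Pdk4. The causes were not tested. Signal near background limits Hsd11b2, Pdk4 and the dim probe sets of Hsd11b1.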
